A study of Mus musculus with 12 samples.

Results

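Keratins are the intermediate filament proteins of epithelial cells, and 8 of their genes were measured in cultured fibro-adipogenic progenitors (FAPs) of the mouse, a mesenchymal population of skeletal muscle. The 8 genes were Krt7, Krt8, Krt18, Krt19 and Krt20, the keratins of simple epithelia, and Krt10, Krt80 and Krt87. They were chosen by their read counts over all libraries: of 54 keratin genes in the count files, these 8 passed a filter on low counts, which 16597 genes passed in all. Their levels are therefore a description, and the choice gives no support to any difference in them. The label of keratins expressed in these cultures holds for 5 of the 8, which reached the filter's level of 0.152 CPM, reads scaled to a common library size, in all 12 libraries. Krt8 and Krt18 passed only with the help of libraries carrying an SMN vector, and Krt87 mainly through libraries without one, so differences of these 3 between such libraries are built into their selection.

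A keratin filament is a heteropolymer of a type I and a type II chain in equal amounts, so the pairing of the types sets which filaments a cell can form. Krt18, Krt19, Krt20 and Krt10 encode type I chains, and Krt8, Krt7, Krt80 and Krt87 encode type II chains. K8 and K18 are the founding pair of simple epithelia, K7 and K19 mark ducts and glands, K20 is known from the intestine, and K10 from the upper layers of the epidermis. Mesenchymal cells such as fibroblasts build their intermediate filaments mainly from vimentin.

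The series compared 4 groups of 3 libraries from FAPs of limb muscle, sorted as 7AAD-, Lin-, Vcam- and Sca1+ and cultured in alpha-MEM with serum. Smn1OE_K186R cultures received 4-hydroxytamoxifen (4-OHT, 1 µM) to delete Bap1, a nuclear deubiquitinase, together with a vector encoding K186R-mutated human SMN, a protein of snRNP assembly. Smn1OE cultures received 4-OHT and the unmutated human SMN, Bap1KO cultures received 4-OHT alone, and WT cultures received ethanol. No culture carried an empty vector, SMN without 4-OHT, or 4-OHT with intact Bap1. The labels name Rosa-CreER as the driver of deletion in one field and Prrx1Cre;Bap1f/f mice in another, and give no age. They do not say whether replicates came from separate animals, so a p-value measures only the spread between these samples, which may be technical.

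Library totals lay between 51.2 and 68.2 M counts. Bap1 was at 39.3 to 42.3 CPM in Bap1KO and 49.7 to 52 CPM in WT. In the SMN groups it was at 41.7 to 47.3 CPM in Smn1OE_K186R and 47.5 to 50 CPM in Smn1OE. The Smn1OE range overlapped with that of WT, and the Smn1OE_K186R range with that of Bap1KO. Which exons the deletion removes is not given in the sources used here. Whether Bap1 was deleted to the same degree in the SMN groups as in Bap1KO was not tested. Reads assigned to Smn1 were at 3690 to 4360 CPM in Smn1OE_K186R, 3790 to 5590 CPM in Smn1OE, 30.5 to 35.1 CPM in Bap1KO and 31.6 to 34.8 CPM in WT. Culture media batches A, B and C each held a Bap1KO and a WT library, and batches D, E and F each held a library of both SMN groups. Xist, the RNA of the inactive X chromosome, was at 0 to 0.113 CPM in the SMN libraries and at 197 to 305 CPM in the others. Vector, batch, sex and animal therefore cannot be told apart where an SMN group is compared with Bap1KO or WT. Summed CPM of 16 FAP and fibroblast markers was 5620 to 7270 in Smn1OE_K186R, 4870 to 6890 in Smn1OE, 10700 to 17600 in Bap1KO and 16300 to 22900 in WT. Its largest member was the collagen gene Col1a1, with means of 3760, 3180, 9440 and 12700 CPM in this order of groups, so the sum follows that gene closely. Not all members followed it: Gsn averaged 931, 981, 904 and 997 CPM and Cd34 60.9, 65.3, 23.5 and 44.1 CPM. In bulk libraries, fewer cells of a type and less RNA per cell cannot be told apart.

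Promoters of 5 of the 8 genes (Krt7, Krt8, Krt18, Krt20 and Krt10) matched the RefSeq table, and 3 are shown because Krt8 and Krt18 moved together in the SMN groups while Krt7 moved apart from them. The sequences are the 250 bases before the RefSeq start on build GRCm38.p6, at chr15:101412153-101412402 (+ strand) for Krt7, chr15:102004343-102004592 (- strand) for Krt8 and chr15:102027966-102028215 (+ strand) for Krt18. Capitals mark matches to the motifs named after them.
Krt7: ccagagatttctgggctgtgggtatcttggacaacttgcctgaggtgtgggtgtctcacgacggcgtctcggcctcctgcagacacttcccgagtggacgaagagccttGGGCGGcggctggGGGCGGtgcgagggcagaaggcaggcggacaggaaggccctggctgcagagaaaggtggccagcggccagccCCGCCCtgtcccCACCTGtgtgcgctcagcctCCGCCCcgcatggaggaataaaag
Krt8: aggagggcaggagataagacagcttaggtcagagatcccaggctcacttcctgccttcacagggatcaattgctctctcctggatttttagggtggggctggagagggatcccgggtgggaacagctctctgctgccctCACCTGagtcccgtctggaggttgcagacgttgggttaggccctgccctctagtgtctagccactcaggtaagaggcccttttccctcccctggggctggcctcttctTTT
Krt18: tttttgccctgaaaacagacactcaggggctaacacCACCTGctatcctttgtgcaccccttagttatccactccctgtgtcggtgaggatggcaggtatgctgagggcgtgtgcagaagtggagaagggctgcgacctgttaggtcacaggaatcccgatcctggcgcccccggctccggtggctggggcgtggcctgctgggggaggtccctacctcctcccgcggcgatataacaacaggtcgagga

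Motifs were searched on both strands in the 300 bases that run from 250 before to 50 after the start. Krt7 held GGGCGG, the GC box, at 4 places, a motif in 35.7% of 32851 promoters. Each of the 3 held 1 E-box CAGGTG, present in 20.2% of promoters, read here as CACCTG on the opposite strand. Its first base lay at -44 in Krt7, -111 in Krt8 and -214 in Krt18. TATAAA, in 13.6% of promoters, was found in Krt8 only across the annotated start, where matches on both strands overlap and only the first letters fall in the printed stretch. In the 2 promoters not shown, TATAAA began at -29 in Krt20 and at -26 in Krt10, and Krt10 held an E-box at -52. None of the 5 held TGANTCA, the AP-1 site (7.81% of promoters), or CGGAAG, an ETS core (16.9%). These are letter matches only.

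Krt19 was the most abundant keratin transcript per kilobase of exon (kb) in every library. It was at 82.1, 54.7 and 69.1 CPM in Smn1OE_K186R replicates 1 to 3, 93.3, 65.9 and 58 CPM in Smn1OE, 40.3, 91.7 and 70.3 CPM in Bap1KO, and 66.3, 88.9 and 75.2 CPM in WT. The 4 groups overlapped, and the lowest library was Bap1KO replicate 1. Krt19 was called in none of the 6 comparisons, where edgeR's quasi-likelihood test gave log2 fold changes of -0.19 to 0.1 and adjusted p of 0.634 to 0.999. K19 is the smallest keratin and lacks most of the tail domain. Its transcript made up 59.7 to 61.8% of the reads on the 8 genes in Smn1OE_K186R, 58.3 to 66.1% in Smn1OE, 54.4 to 64.7% in Bap1KO and 71.2 to 72.6% in WT. Vim, which encodes vimentin, was 17.1 to 38.3 times as high as Krt19 per kb across the 12 libraries. Per kb, the median level over the libraries was 37.6 CPM for Krt19, 8.07 for Krt20, 1.94 for Krt80, 1.42 for Krt10, 0.542 for Krt7, 0.478 for Krt18, 0.063 for Krt87 and 0.00768 for Krt8. Krt19 and Krt20 did not overlap in their ranges per kb, and every other pair of neighbours in this order did. The order differed between groups. Krt18 averaged above Krt7 in Smn1OE_K186R (1.2 and 0.597 CPM per kb) and Smn1OE (1.44 and 0.542), and below it in Bap1KO (0.127 and 1.48) and WT (0.0675 and 0.46). This order depends on the length used, that of all annotated exons of a gene, 1.44 kb for Krt18 and 7.05 kb for Krt7. In CPM, Krt18 averaged below Krt7 also in Smn1OE_K186R (1.73 and 4.21) and Smn1OE (2.07 and 3.82). Krt8 averaged above Krt87 in Smn1OE_K186R (0.0407 and 0.0293 CPM per kb) and Smn1OE (0.129 and 0.0328), and had no read in the other groups.

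**Figure D1:**
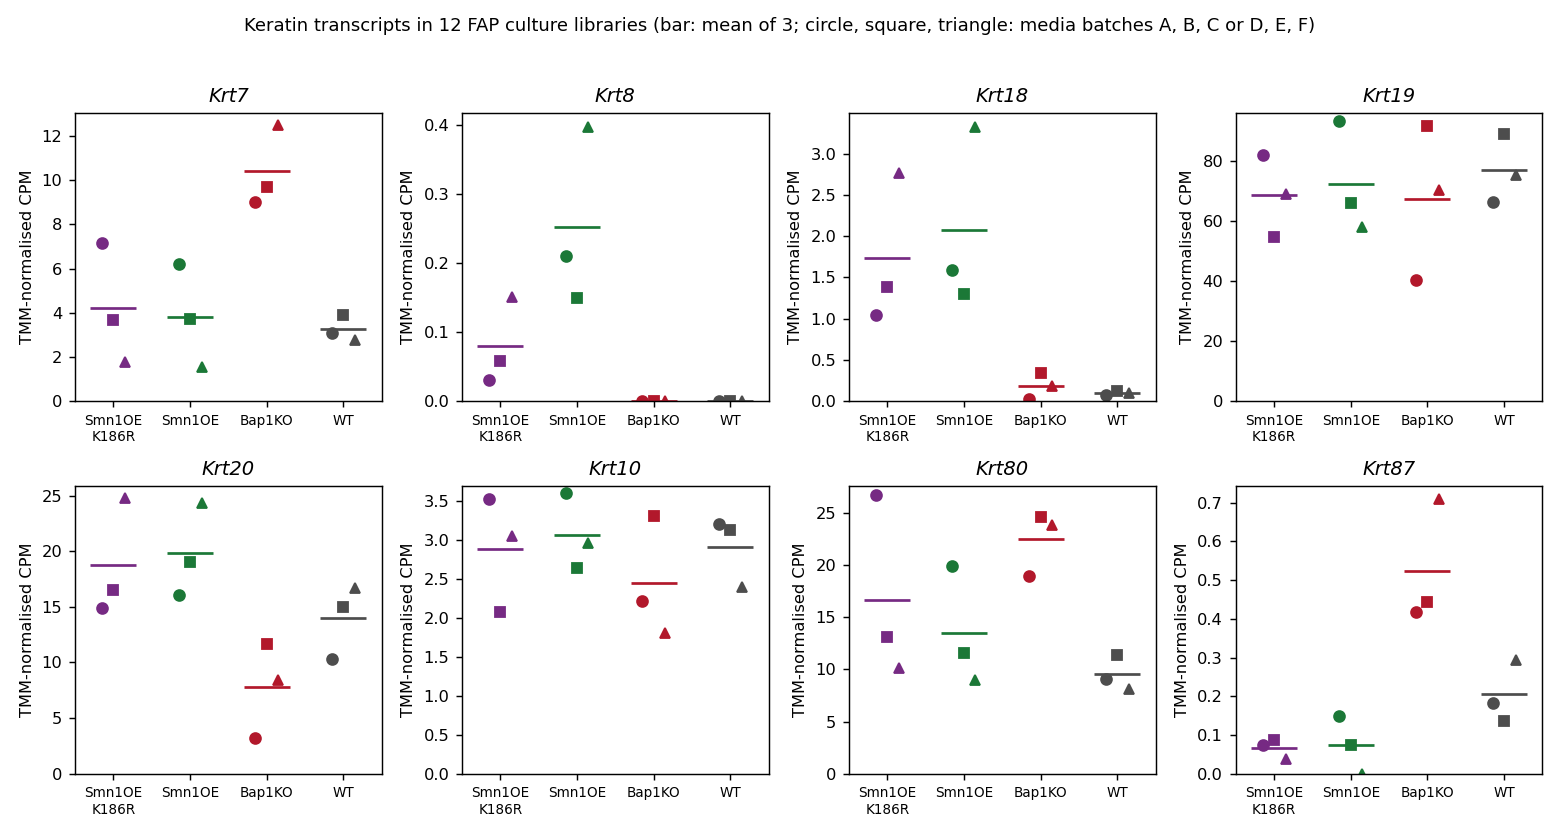
TMM-normalised CPM of the 8 keratin genes in each library, by group, with a bar at the mean of 3. Circles, squares and triangles are batches D, E and F in the SMN groups and A, B and C in Bap1KO and WT. Krt8 had no read in Bap1KO or WT, Krt18 was above 1 CPM in all 6 SMN libraries, and Krt7 was at 9 to 12.5 CPM in Bap1KO and 2.75 to 3.91 CPM in WT.

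Krt7, the simple epithelial type II keratin with reads in all libraries, was higher in Bap1KO than in WT. It was at 9, 9.7 and 12.5 CPM in Bap1KO replicates 1 to 3 and at 3.07, 3.91 and 2.75 CPM in WT. Every Bap1KO library was above every WT library. The mean was 10.4 ± 1.86 CPM in Bap1KO and 3.24 ± 0.595 CPM in WT (SD, n = 3 each), a log2 fold change of 1.68 (SE 0.49; edgeR's quasi-likelihood adjusted p = 0.0487). This call was lost when any 1 of the 6 compared libraries was left out, and without Smn1OE replicate 2 or Smn1OE_K186R replicate 2, the adjusted p reaching 0.147. With the media batch as a replicate block, the adjusted p was 8.39e-06 at the same log2 fold change, and the log2 differences were 1.54 in batch A, 1.3 in batch B and 2.17 in batch C.

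In the SMN groups, Krt7 overlapped with WT. Its values were 7.17, 3.68 and 1.77 CPM in Smn1OE_K186R and 6.19, 3.73 and 1.53 CPM in Smn1OE. In both groups the library of batch D was highest and that of batch F lowest, and all 6 were below the 3 Bap1KO libraries. Against Bap1KO, Krt7 was lower in Smn1OE by edgeR's quasi-likelihood test (log2 fold change -1.44, SE 0.48, adjusted p = 0.0378). In Smn1OE_K186R it missed the threshold (log2 fold change -1.3, SE 0.48, adjusted p = 0.0551). The Smn1OE call was lost without any 1 Bap1KO library or without Smn1OE replicate 2 or 3, the adjusted p reaching 0.109. The Smn1OE_K186R value was past the threshold with the batch as a random effect (adjusted p = 0.00965, limma voom). Against WT, the edgeR log2 fold change was 0.38 in Smn1OE_K186R (adjusted p = 0.535) and 0.24 in Smn1OE (adjusted p = 0.7).

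Krt8 and Krt18, the partner pair of simple epithelia, were higher in the SMN groups. Krt18 was at 1.04, 1.38 and 2.77 CPM in Smn1OE_K186R, 1.59, 1.3 and 3.33 CPM in Smn1OE, 0.0298, 0.335 and 0.181 CPM in Bap1KO, and 0.076, 0.122 and 0.0929 CPM in WT. All 6 SMN libraries were above all 6 others. The mean was 1.73 ± 0.916 CPM in Smn1OE_K186R, 2.07 ± 1.1 in Smn1OE, 0.182 ± 0.153 in Bap1KO and 0.097 ± 0.0233 in WT (SD, n = 3 each). Against Bap1KO, Krt18 was 9.38-fold higher in Smn1OE_K186R (log2 fold change 3.23, SE 0.63, edgeR adjusted p = 0.00341). In Smn1OE it was 11.3-fold higher (log2 fold change 3.49, SE 0.63, edgeR adjusted p = 0.0021). Against WT, the log2 fold change was 4.12 in Smn1OE_K186R (SE 0.68, edgeR adjusted p = 0.000448) and 4.38 in Smn1OE (SE 0.68, edgeR adjusted p = 0.000315). These 4 calls held when each library was left out in turn, with an adjusted p of up to 0.0153. As Krt18 passed the filter with the help of the SMN libraries, the calls and their stability describe the difference and give no independent support for it. Bap1KO and WT overlapped in Krt18 (log2 fold change 0.89, SE 0.75, edgeR adjusted p = 0.492), with a log2 difference of -0.81 in batch A, 1.26 in batch B and 0.78 in batch C. Log2 differences within batches carry a prior count of 2, which shrinks those of genes with few reads.

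Krt8 was read far less often than its partner. It had 2, 4 and 8 reads in Smn1OE_K186R, 14, 10 and 21 reads in Smn1OE, and no read in any Bap1KO or WT library. Its level averaged 0.0796 ± 0.0631 CPM in Smn1OE_K186R and 0.252 ± 0.13 CPM in Smn1OE (SD, n = 3 each). A floor of 3 counts per library was taken for the groups with no read. The Krt8 mean in Smn1OE_K186R was 1.65 times this floor in Bap1KO and 1.73 times that in WT. The Smn1OE mean was 5.22 times the floor in Bap1KO and 5.49 times that in WT. These ratios put no error on the SMN means, and Smn1OE_K186R replicate 1, at 2 reads, was itself below the floor. The edgeR adjusted p was 0.027 against Bap1KO and 0.0163 against WT in Smn1OE_K186R, and 0.0052 against Bap1KO and 0.00242 against WT in Smn1OE. The call of Smn1OE_K186R against Bap1KO did not hold without Smn1OE_K186R replicate 3 or without Bap1KO replicate 1 or 3, the adjusted p reaching 0.0657. Krt8 passed the filter only through SMN libraries, so its calls are a description too. The floor covers counting error only, and only in the groups with no read. In each of batches D, E and F, Krt8 was lower in Smn1OE_K186R than in Smn1OE, by log2 differences of -1.97, -1.01 and -1.24, without a call (log2 fold change -1.67, SE 0.72, edgeR adjusted p = 0.997; 0.384 with the replicate block). The pseudogene Krt8-ps had no read in any library.

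Per kb, the pair was unequal: Krt18 averaged 1.2 CPM per kb and Krt8 0.0407 CPM per kb in Smn1OE_K186R, and Krt18 averaged 1.44 CPM per kb and Krt8 0.129 CPM per kb in Smn1OE. The 2 genes lie 23697 bases apart on chromosome 15 in GENCODE M21, on opposite strands.

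Krt20, a type I keratin, was also higher in the SMN groups than in Bap1KO. It was at 14.9, 16.5 and 24.8 CPM in Smn1OE_K186R, 16.1, 19 and 24.3 CPM in Smn1OE, 3.19, 11.7 and 8.39 CPM in Bap1KO, and 10.3, 15 and 16.7 CPM in WT. The SMN libraries were all above the Bap1KO ones and overlapped with WT. By edgeR's quasi-likelihood test against Bap1KO, the log2 fold change was 1.27 in Smn1OE_K186R (SE 0.37, adjusted p = 0.0216) and 1.35 in Smn1OE (SE 0.37, adjusted p = 0.0161). The first call was lost without Bap1KO replicate 3 (adjusted p = 0.0521) or Smn1OE_K186R replicate 3 (0.0769), and the second without Smn1OE replicate 3 (0.0599). Against WT, the log2 fold change was 0.42 in Smn1OE_K186R (edgeR adjusted p = 0.359) and 0.5 in Smn1OE (edgeR adjusted p = 0.271).

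In Bap1KO against WT, Krt20 averaged 7.75 ± 4.28 CPM in Bap1KO and 14 ± 3.31 CPM in WT (SD, n = 3 each), and the groups overlapped (log2 fold change -0.85, SE 0.37, edgeR adjusted p = 0.165). Within each batch the Bap1KO library was the lower one, by log2 differences of -1.69 in batch A, -0.36 in batch B and -0.99 in batch C. With the batch as a replicate block, Krt20 was called lower (log2 fold change -0.97, SE 0.17, edgeR adjusted p = 0.00103). That fit called 29% of all tested genes (11.9% higher and 17.2% lower), against 9.72% without the block.

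Krt80, a type II keratin of many human epithelia, was the gene that moved like Krt7. It was at 19, 24.6 and 23.9 CPM in Bap1KO and at 9.06, 11.4 and 8.16 CPM in WT. The groups did not overlap, with means of 22.5 ± 3.04 CPM in Bap1KO and 9.52 ± 1.65 CPM in WT (SD, n = 3 each), a log2 fold change of 1.24 (SE 0.34, edgeR adjusted p = 0.043). The call was lost without Bap1KO replicate 2 or 3, any 1 WT library, or Smn1OE replicate 2, the adjusted p reaching 0.133. With the replicate block the edgeR adjusted p was 3.77e-06, and the log2 difference was 1.06 in batch A, 1.11 in batch B and 1.55 in batch C. An antisense gene, Gm35853, shares 263 exon bases with Krt80 and had 2 to 84 reads per library, against 473 to 1775 for Krt80. Whether the counting used strand is not stated, so reads of the 2 cannot be told apart in the shared bases. The antisense partners of Krt7, Krt8 and Krt10 had at most 5 reads in a library.

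In the SMN groups Krt80 spread as Krt7 did, at 26.7, 13.1 and 10.1 CPM in Smn1OE_K186R and 19.9, 11.6 and 8.96 CPM in Smn1OE, highest in batch D and lowest in batch F. Both groups overlapped with Bap1KO and with WT. No comparison of them was called by edgeR's quasi-likelihood test on the filtered genes. Against Bap1KO, the log2 fold change was -0.43 in Smn1OE_K186R (edgeR adjusted p = 0.347) and -0.73 in Smn1OE (edgeR adjusted p = 0.116). Against WT it was 0.81 in Smn1OE_K186R (edgeR adjusted p = 0.068) and 0.51 in Smn1OE (edgeR adjusted p = 0.237). The Smn1OE value against Bap1KO passed the threshold with the batch as a random effect (limma voom adjusted p = 0.0422) and with no filter on low counts (edgeR adjusted p = 0.0114). The Smn1OE_K186R value against WT passed it with no filter (edgeR adjusted p = 0.00357) and in DESeq2 (adjusted p = 0.0237).

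Krt87 was read at a low level: it was at 0.0752, 0.0872 and 0.0377 CPM in Smn1OE_K186R, 0.15, 0.0746 and 0 CPM in Smn1OE, 0.417, 0.442 and 0.708 CPM in Bap1KO, and 0.183, 0.137 and 0.294 CPM in WT. The Bap1KO libraries were above all others. Against Bap1KO, it was 7.46-fold lower in Smn1OE_K186R (log2 fold change -2.9, SE 0.69, edgeR adjusted p = 0.00851) and 6.54-fold lower in Smn1OE (log2 fold change -2.71, SE 0.68, edgeR adjusted p = 0.0102). Krt87 passed the filter mainly through libraries without an SMN vector, so these calls are a description. Against WT, Bap1KO had a log2 fold change of 1.34 (SE 0.61, edgeR adjusted p = 0.187), with 1.07, 1.49 and 1.18 in batches A, B and C. Against WT, the log2 fold change was -1.56 in Smn1OE_K186R (edgeR adjusted p = 0.0867) and -1.37 in Smn1OE (edgeR adjusted p = 0.122).

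Krt10, the epidermal type I keratin, had the smallest ratio of highest to lowest library among the 8 genes. It was at 3.53, 2.08 and 3.05 CPM in Smn1OE_K186R, 3.61, 2.64 and 2.97 CPM in Smn1OE, 2.22, 3.31 and 1.81 CPM in Bap1KO, and 3.21, 3.13 and 2.4 CPM in WT. The 4 groups overlapped, and no comparison was called, with log2 fold changes of -0.25 to 0.33 and edgeR adjusted p of 0.356 to 0.999.

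**Figure D2:**
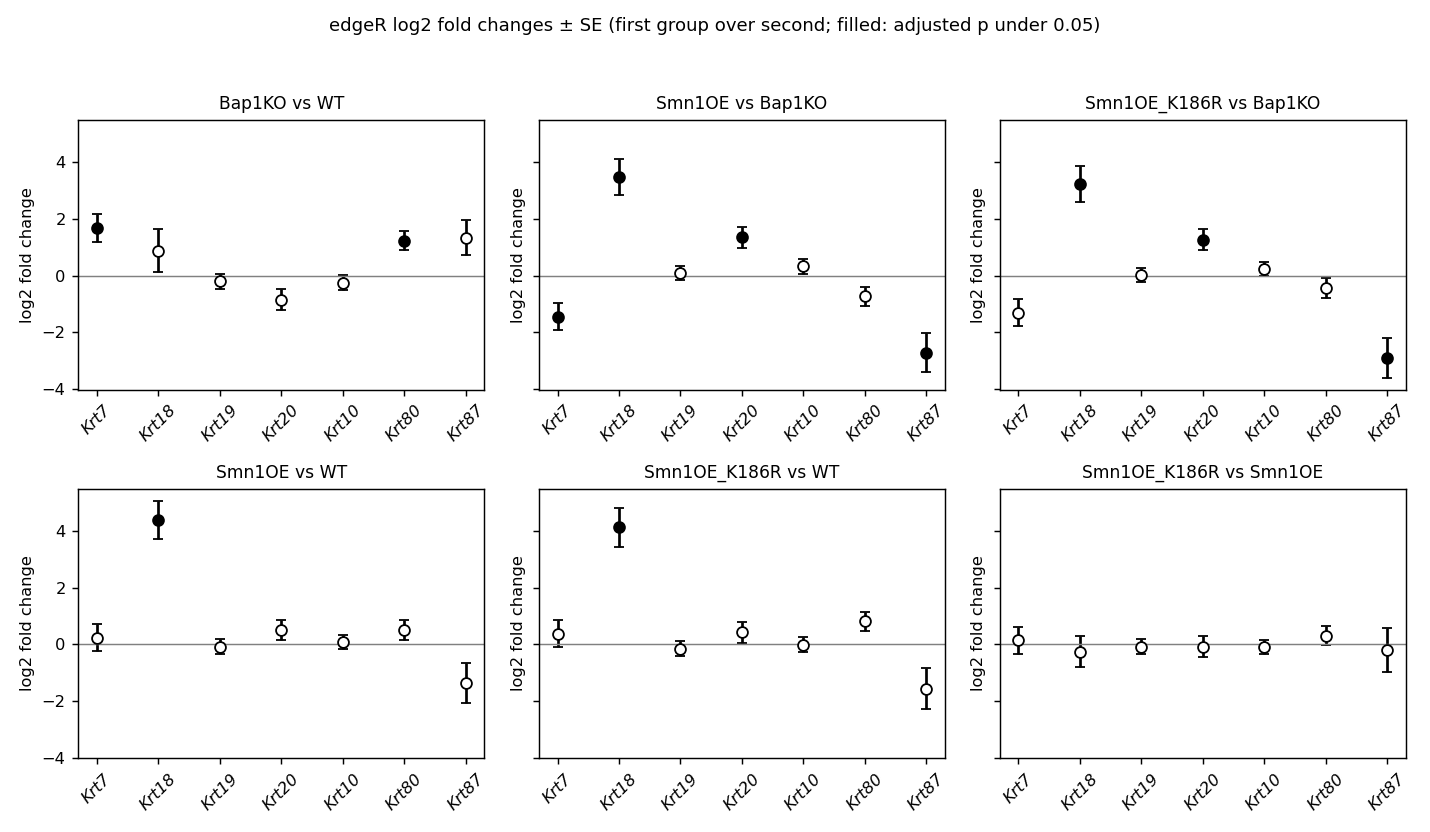
Log2 fold changes with their SE from edgeR for 7 of the keratin genes in the 6 comparisons, the first group named over the second, with filled points at an adjusted p under 0.05. Krt8 is left out because it had no read in Bap1KO or WT. Krt7 and Krt80 are filled in Bap1KO against WT, and Krt18 is filled in the 4 panels that set an SMN group against Bap1KO or WT.

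Counted over the genes, 2 of 8 were called higher in Bap1KO than in WT and none lower. Of all tested genes 9.72% were called there, 3.36% higher and 6.37% lower. In Smn1OE_K186R against Bap1KO, 3 were called higher and 1 lower, where 32.6% of all tested genes were called, 16.1% higher and 16.5% lower. In Smn1OE against Bap1KO, 3 were higher and 2 lower, where 33.5% of all were called, 15.8% higher and 17.7% lower. These comparisons share the Bap1KO libraries. Against WT, 2 were higher and none lower in Smn1OE_K186R, where 50.5% of all were called, 24% higher and 26.5% lower. In Smn1OE, 2 were higher and none lower against WT, where 50.4% of all were called, 23.8% higher and 26.6% lower. The 2 were Krt8 and Krt18 in both SMN groups, and the comparisons share the WT libraries. Since 3 of the genes passed the filter through their high groups, these counts are given as a description. The median log2 fold change of the 8 genes was between -0.08 and 0.44 over the 6 comparisons, and that of all tested genes between -0.02 and 0.01.

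Groups that did not overlap were common among all genes. Against Bap1KO, 5 of the 8 did not overlap in Smn1OE_K186R (43.7% of all tested genes) and 5 in Smn1OE (48.6%). Against WT, 3 did not overlap in Smn1OE_K186R (58.4%), 2 in Smn1OE (62.4%) and 3 in Bap1KO (32.3%). None stood apart in Smn1OE_K186R against Smn1OE, where 6.78% of all tested genes did.

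Between the forms of SMN no keratin was called: 0 of 8 in Smn1OE_K186R against Smn1OE by edgeR, beside 0% of all tested genes. Across all genes, edgeR gave 388 at an unadjusted p under 0.05, Krt8 among them, and DESeq2 called 0. With the replicate block, 48 genes (0.289%), all higher, and no keratin were called. Within the batches, the log2 difference of Krt80 was 0.42, 0.17 and 0.17 in D, E and F (0.26 with the block, edgeR adjusted p = 0.379). Krt7 and Krt80 were highest in batch D and lowest in batch F in both groups, and Krt20, Krt18 and Krt8 were highest in batch F. Within each form of SMN, Krt7, Krt80 and Krt20 differed more between batches than their means differed between the forms.

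**Figure D3:**
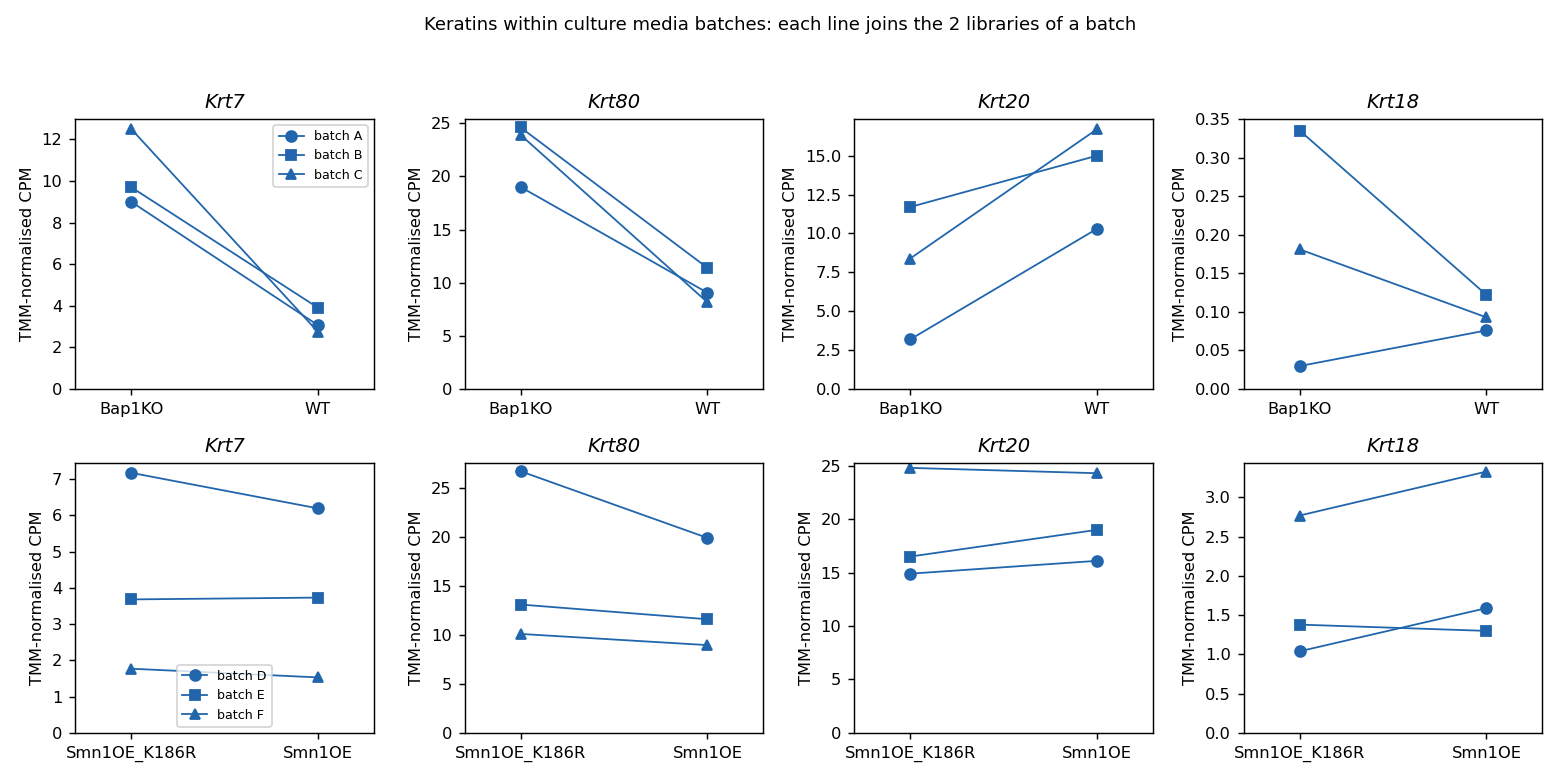
TMM-normalised CPM of Krt7, Krt80, Krt20 and Krt18 within culture media batches, each line joining the 2 libraries of a batch. The upper row sets Bap1KO beside WT in batches A, B and C. Within each batch Krt7 and Krt80 were higher and Krt20 lower in the Bap1KO library than in the WT library. The lower row sets Smn1OE_K186R beside Smn1OE in batches D, E and F, where Krt7 and Krt80 were highest in batch D and lowest in batch F in both groups.

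The 2 types of chain were far from equal in transcript level per kb. Summed per kb, the type I genes reached 54.4, 40 and 53.5 CPM per kb in Smn1OE_K186R, 61.5, 47.5 and 47.6 in Smn1OE, 24.5, 57.3 and 43.2 in Bap1KO and 42.7, 57.2 and 50.4 in WT. The type II sums were 5.24, 2.65 and 1.92 CPM per kb in Smn1OE_K186R, 4.17, 2.46 and 1.82 in Smn1OE, 4.43, 5.41 and 5.82 in Bap1KO and 1.93, 2.39 and 1.8 in WT. Per kb, type I transcripts were thus in excess in every library. Their ratio to type II was 10.4 to 27.9 in Smn1OE_K186R, 14.7 to 26.2 in Smn1OE, 5.53 to 10.6 in Bap1KO and 22.1 to 28 in WT. The Bap1KO and WT ratios did not overlap, nor did those of Smn1OE and Bap1KO, and the Smn1OE_K186R ratios reached into the Bap1KO range. The sums divide by the length of all annotated exons of a gene. It was largest for the type II genes Krt7 (7.05 kb) and Krt80 (6.39 kb), which lowers the type II sums. The sums also rest on the chosen genes and were not tested, and transcript levels do not give the amounts of protein.

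**Figure D4:**
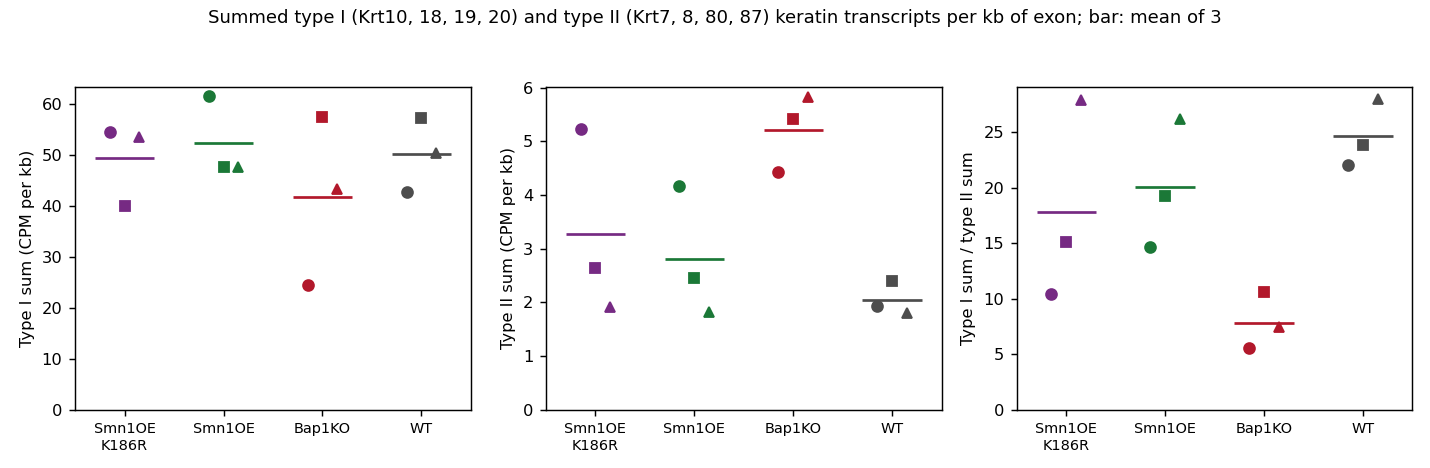
Summed type I and type II keratin transcripts in CPM per kb of exon, and their ratio, for each library by group, with a bar at the mean of 3. Type II sums were at 4.43 to 5.82 in Bap1KO and 1.8 to 2.39 in WT, and the ratio of type I to type II was above 5 in all 12 libraries.

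Type II keratin genes other than these lie beside Krt7 on chromosome 15. Krt7 and Krt87 are next to each other, 724 bases apart and converging in GENCODE M21, and Krt80 is on the other side of Krt7. Summed over 3 libraries, Krt84, a hair and tongue keratin, had 4 reads in Smn1OE_K186R, 0 in Smn1OE, 34 in Bap1KO and 11 in WT, of which 9 were in WT replicate 1. Krt81, a hair keratin, had 0 reads in Smn1OE_K186R, 2 in Smn1OE, 16 in Bap1KO and 3 in WT. Gm49425 had 2 reads in Smn1OE, 20 in Bap1KO and 0 in Smn1OE_K186R and WT. Krt83, Krt86 and Krt88 had at most 7 reads in any group. None of these 6 genes passed the filter, so none was tested.

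**Figure D5:**
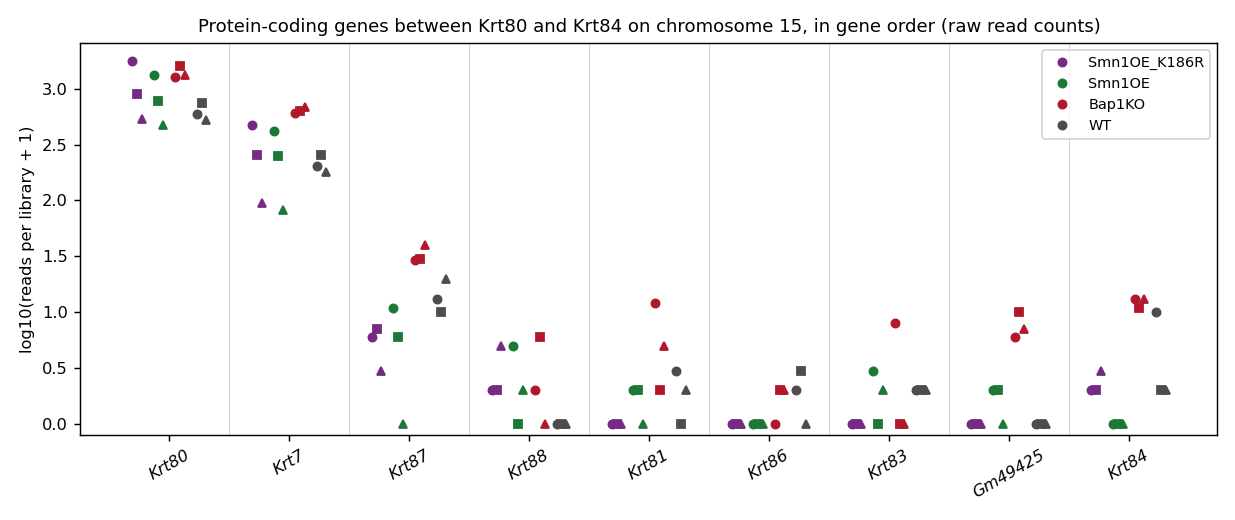
Reads per library, as log10 of the count plus 1, for the protein-coding genes between Krt80 and Krt84 on chromosome 15 in gene order, with 3 points a group. Krt84 had 10 to 12 reads in each Bap1KO library and at most 2 in each SMN library, and 1 WT library had 9.

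The other 46 keratin genes were at or near 0. Of these, 36 had at least 1 read, 10 had none, and 7 reached the filter's level in some library. Just outside the filter were Krt12 (73 reads over 12 libraries), Krt222 (54) and Krt84 (49), and the lowest inside were Krt8 (59) and Krt87 (164). Krt14, a keratin of the basal epidermis, had 0 reads, and its partner Krt5 had 21, of which 15 were in Smn1OE_K186R replicate 1.

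Likeness was described by Pearson's r of log2 CPM over the 12 libraries, which fall into SMN and other libraries and share batches, so r carries no p. Most like Krt7 among 12455 genes with a mean of at least 1 CPM were Galk2 (r = 0.932), Gm9913 (0.906), Msi2 (0.902), Krt80 (0.9) and Klra2 (0.896). Krt18 was most like Shroom4 and Dusp4 (0.99 each), Ets1 (0.988), Tnfaip1 (0.987) and Rars (0.986). Ranked over all 16596 other tested genes, whatever their mean, Krt8 stood at 997 in likeness to Krt18, with r = 0.899. Krt8, with few reads, was most like Abhd5 (0.952), Patz1 and Nup62 (0.951 each), and Hsdl1 and Snx11 (0.948 each). Krt19 was most like Ckb (0.909), Rasl10b (0.893), Gstt2 (0.879), Mtcl1 (0.877) and Rnd1 (0.853). Its likest keratin was Krt10 (0.595, rank 340 of the 16596). As deviations from the group means, Krt7 with Krt80 and Krt18 with Krt20 each had r = 0.93, and Krt7 with Krt87 had 0.73.

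Proteins that anchor keratin filaments were read beside them, in a list of 22 linker and desmosome genes of which 16 were tested. Against WT, 9 were higher and none lower in Smn1OE_K186R (median log2 fold change 0.55), and 9 were higher and none lower in Smn1OE (0.71), where 50.5% and 50.4% of all tested genes were called. Dsp, which encodes desmoplakin, the plakin that ties keratins to desmosomes, averaged 5.49 ± 1.05 CPM in Smn1OE_K186R, 4.73 ± 1.91 in Smn1OE, 1.69 ± 0.807 in Bap1KO and 0.575 ± 0.395 in WT (SD, n = 3 each). Its log2 fold change against WT was 3.25 in Smn1OE_K186R (edgeR adjusted p = 0.000304) and 3.03 in Smn1OE (edgeR adjusted p = 0.000458). Perp, a desmosome component, averaged 28.7 ± 7.17 CPM in Smn1OE_K186R, 28 ± 5.86 in Smn1OE, 10.4 ± 4.21 in Bap1KO and 9.28 ± 2.86 in WT. Dsc2, a desmosomal cadherin, averaged 3.71 ± 0.166 CPM in Smn1OE_K186R, 3.81 ± 0.736 in Smn1OE, 1.49 ± 0.68 in Bap1KO and 1.11 ± 0.452 in WT. Both were called higher in each SMN group against Bap1KO and against WT (edgeR adjusted p of 0.00103 to 0.0103). In Smn1OE against WT, the listed genes Dst and Macf1 had a smaller adjusted p than Dsp, Perp and Dsc2. Their log2 fold changes were 0.88 (edgeR adjusted p = 7.7e-05) and 0.69 (edgeR adjusted p = 0.000295).

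Against Bap1KO, the list had 7 higher and 1 lower in Smn1OE_K186R (median 0.49) and 7 higher and 2 lower in Smn1OE (0.46). Of all tested genes, 32.6% and 33.5% were called there. Ppl, which encodes periplakin, was among the lower ones, with a log2 fold change of -1.67 in Smn1OE_K186R (edgeR adjusted p = 0.029) and -2.06 in Smn1OE (edgeR adjusted p = 0.0121). In Bap1KO against WT, 3 were higher and 1 lower (median 0.29), where 9.72% of all tested genes were called. Macf1 and Dst, giant plakins that link filament systems, had log2 fold changes of 0.56 (edgeR adjusted p = 0.00858) and 0.47 (edgeR adjusted p = 0.0203). Fam83h, a keratin-binding protein, had 0.46 (edgeR adjusted p = 0.0453), and Pkp3, a plakophilin, had -2.42 at 0.0922 ± 0.0536 CPM in Bap1KO and 0.498 ± 0.299 CPM in WT (edgeR adjusted p = 0.0464).

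Of 16 other intermediate filament genes, 13 were tested. In Smn1OE_K186R, 1 was higher and 2 lower against Bap1KO (median 0.3), and 4 were higher and 4 lower against WT (-0.1). In Smn1OE, 1 was higher and 2 lower against Bap1KO (0.04), and 5 were higher and 4 lower against WT (-0.04). In Bap1KO against WT, 1 was higher and 3 lower (-0.02). Among all tested genes, 32.6% were called in Smn1OE_K186R and 33.5% in Smn1OE against Bap1KO. The shares were 50.5% and 50.4% against WT, and 9.72% in Bap1KO against WT. Nes, the nestin gene of progenitor cells, averaged 56.9 ± 6.49 CPM in Smn1OE_K186R, 75.9 ± 6.1 in Smn1OE, 20.7 ± 10.6 in Bap1KO and 45.5 ± 14.8 in WT (SD, n = 3 each). It was lower in Bap1KO against WT, with a log2 fold change of -1.13 (edgeR adjusted p = 0.0321), and against Bap1KO it was 1.45 in Smn1OE_K186R (edgeR adjusted p = 0.00398) and 1.87 in Smn1OE (edgeR adjusted p = 0.00113). Prph, the neuronal filament gene peripherin, was higher in Bap1KO (0.759 ± 0.132 CPM) than in WT (0.275 ± 0.0656 CPM; log2 fold change 1.45, edgeR adjusted p = 0.0277). Bfsp1, a lens filament gene, and Lmnb1, a nuclear lamin gene, were lower in Bap1KO, with log2 fold changes of -1.92 (edgeR adjusted p = 0.00236) and -0.8 (edgeR adjusted p = 0.0239). Against WT, Bfsp1 and Lmnb1 were also called lower and Prph higher in each SMN group (edgeR adjusted p of 0.000171 to 0.000934). Vim averaged 4300 ± 564 CPM in Smn1OE_K186R, 4270 ± 280 in Smn1OE, 4550 ± 687 in Bap1KO and 4620 ± 408 in WT, and was called in no comparison.

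Of 20 listed markers of epithelial cells, 10 were tested. Against Bap1KO, 2 were higher in Smn1OE_K186R and 3 in Smn1OE, with none lower (medians 0.82 and 0.9), where 32.6% and 33.5% of all tested genes were called. Against WT, 5 were higher and 1 lower in Smn1OE_K186R (1.13), and 5 were higher and none lower in Smn1OE (1.1), where 50.5% and 50.4% of all were called. None was called in Bap1KO against WT (0.39). Summed without keratins, the list reached 12.7 to 20 CPM in Smn1OE_K186R, 12.5 to 22.1 in Smn1OE, 6.91 to 10.2 in Bap1KO and 5.84 to 7.94 in WT. Cldn4, a tight junction claudin, had 26, 38 and 84 reads in Smn1OE_K186R, 70, 56 and 182 in Smn1OE, 0, 2 and 1 in Bap1KO and 0 in each WT library. St14, the membrane protease matriptase, averaged 3.33 ± 1.24 CPM in Smn1OE_K186R, 3.77 ± 0.783 in Smn1OE, 0.973 ± 0.398 in Bap1KO and 0.372 ± 0.207 in WT (edgeR adjusted p of 0.000128 to 0.00792 for the SMN groups against Bap1KO and WT). Ocln, another listed marker, was the gene called lower in Smn1OE_K186R against WT (log2 fold change -1.37, edgeR adjusted p = 0.0314). In Smn1OE against WT it was at -0.81 without a call (edgeR adjusted p = 0.165). Spint1 was also below WT in both SMN groups without a call (-0.24 in Smn1OE_K186R and -0.51 in Smn1OE). Defining epithelial genes were near 0, with 46 reads over all 12 libraries for Cdh1, 93 for Epcam, 21 for Grhl2 and 0 for Krt14.

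The mesothelial list held 12 genes, 3 of them keratins of this set, and 7 were tested. Against Bap1KO, 3 were higher in Smn1OE_K186R and 2 in Smn1OE, and against WT 3 were higher in each, with medians of 1.37 to 1.68 and none lower. In each of these, 2 of the called genes were Krt8 and Krt18 themselves. They also enter the medians, which are therefore a description, as both passed the filter with the help of SMN libraries. The share called among all tested genes was 32.6% in Smn1OE_K186R and 33.5% in Smn1OE against Bap1KO, and 50.5% and 50.4% against WT. None was called in Bap1KO against WT (0). Summed without keratins, the list lay at 5.74 to 10.3 CPM in Smn1OE_K186R, 4.3 to 9.53 in Smn1OE, 4.71 to 6.56 in Bap1KO and 4.11 to 5.6 in WT. Lrrn4 had 0 reads, Upk3b 5, Muc16 3 and Wt1 19 over all 12 libraries. Msln, the mesothelin gene, had 322, 138 and 50 reads in Smn1OE_K186R, 302, 140 and 30 in Smn1OE, 51, 95 and 30 in Bap1KO and 45, 70 and 67 in WT, and was called in no comparison. Upk1b, a uroplakin gene, averaged 0.656 ± 0.332 CPM in Smn1OE_K186R, 0.652 ± 0.23 in Smn1OE and 0.153 ± 0.0844 in WT, and was called higher in both SMN groups against WT (edgeR adjusted p = 0.0387 and 0.0389). Bnc1, a zinc finger gene, averaged 0.356 ± 0.147 CPM in Smn1OE_K186R and 0.105 ± 0.0277 in Bap1KO (edgeR adjusted p = 0.042). What part other cells took in the keratin values was not tested.

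A list of 24 genes covered hair and the cornified envelope, the shell of the dead outer cells of the epidermis, and 9 of them were tested. Against Bap1KO, 6 were higher and 1 lower in Smn1OE_K186R (median 2.2), and 5 higher and 1 lower in Smn1OE (2.23). Against WT, 7 were higher and 1 lower in Smn1OE_K186R (3.34), and 7 higher and none lower in Smn1OE (3.48). Of all tested genes, 32.6% were called in Smn1OE_K186R and 33.5% in Smn1OE against Bap1KO. Those shares were 50.5% and 50.4% against WT, and 9.72% in Bap1KO against WT. Ivl, which encodes the envelope protein involucrin, averaged 5.12 ± 0.69 CPM in Smn1OE_K186R, 5.23 ± 0.623 in Smn1OE, 1.11 ± 0.63 in Bap1KO and 1.08 ± 0.485 in WT (SD, n = 3 each; edgeR adjusted p of 0.000566 to 0.0021 for the SMN groups). Cdsn was the gene called lower. Against Bap1KO its log2 fold change was -1.39 in Smn1OE_K186R (edgeR adjusted p = 0.0134) and -1.08 in Smn1OE (edgeR adjusted p = 0.0378). Against WT it was -1.19 in Smn1OE_K186R (edgeR adjusted p = 0.0171) and, without a call, -0.88 in Smn1OE (edgeR adjusted p = 0.0604). Tchh, which encodes trichohyalin of the hair follicle, was the 1 gene called in Bap1KO against WT (median 0.35), at 3.02 ± 0.995 CPM in Bap1KO and 0.618 ± 0.143 CPM in WT (log2 fold change 2.28, edgeR adjusted p = 0.00519). Summed, the list lay at 14.7 to 29.4 CPM in Smn1OE_K186R, 18.2 to 30.5 in Smn1OE, 7.76 to 10.5 in Bap1KO and 5.2 to 6.39 in WT. Of the 24 genes, 13 had no read in WT.

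Of 20 regulators of keratin and epithelial genes, 16 were tested. In Smn1OE_K186R, 5 were higher and 5 lower against Bap1KO (median 0.06), and 6 higher and 5 lower against WT (0.1). In Smn1OE, 4 were higher and 6 lower against Bap1KO (-0.03), and 6 higher and 6 lower against WT (-0.01). Beside these, 32.6% (Smn1OE_K186R) and 33.5% (Smn1OE) of all tested genes were called against Bap1KO, and 50.5% and 50.4% against WT. Klf5, an epithelial transcription factor, averaged 7.52 ± 0.764 CPM in Smn1OE_K186R, 8.91 ± 1.6 in Smn1OE, 2.14 ± 0.38 in Bap1KO and 2.23 ± 0.134 in WT. Ets1, a transcription factor with r = 0.988 to Krt18 above, averaged 90 ± 6.59 CPM in Smn1OE_K186R, 93.5 ± 9.65 in Smn1OE, 46 ± 8.87 in Bap1KO and 42.1 ± 3.42 in WT. Snai1, a repressor of epithelial genes, averaged 51.4 ± 4.6 CPM in Smn1OE_K186R, 51.4 ± 7.28 in Smn1OE, 94.4 ± 18.7 in Bap1KO and 103 ± 7.19 in WT. Klf5 and Ets1 were called higher and Snai1 lower in each SMN group against Bap1KO and WT (edgeR adjusted p of 1.44e-05 to 0.00141). Klf4 was called lower against Bap1KO in Smn1OE_K186R (log2 fold change -0.53, edgeR adjusted p = 0.0122) and Smn1OE (-0.77, edgeR adjusted p = 0.00197). Zeb2, a listed gene like these, was called higher in Smn1OE_K186R against Bap1KO (0.68, edgeR adjusted p = 0.0218). Against WT, Zeb2 was higher in Smn1OE_K186R (0.81, edgeR adjusted p = 0.00533) and Smn1OE (0.55, edgeR adjusted p = 0.0371). In Bap1KO against WT, only Twist1, a mesenchymal factor, was called, with a log2 fold change of -0.33 (edgeR adjusted p = 0.0403; list median -0.01).

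The remaining lists covered markers of FAPs and of other cell types. They are given as counts called between groups, which do not settle the cell type of the cultures. Of 15 tested FAP and fibroblast markers, 1 was higher and 8 lower in Smn1OE_K186R against Bap1KO (median -0.97), and 1 higher and 10 lower in Smn1OE (-1.14). Against WT, 11 were lower in Smn1OE_K186R (-1.58) and 12 in Smn1OE (-1.74), with none higher, and Bap1KO had 1 higher and 1 lower (-0.6). Over all tested genes, 32.6% were called in Smn1OE_K186R and 33.5% in Smn1OE against Bap1KO. Against WT the shares were 50.5%, 50.4% and, in Bap1KO, 9.72%, and the lists below are to be read beside them. Pdgfra, the receptor that defines FAPs, averaged 22.8 ± 6.88 CPM in Smn1OE_K186R, 18 ± 3.62 in Smn1OE, 33.8 ± 6.81 in Bap1KO and 90.9 ± 15 in WT. It was not called in Smn1OE_K186R against Bap1KO (log2 fold change -0.56, edgeR adjusted p = 0.0757). Cd34 was the marker called higher against Bap1KO, with 1.37 in Smn1OE_K186R (edgeR adjusted p = 0.00904) and 1.47 in Smn1OE (edgeR adjusted p = 0.00612). Of 10 tested smooth muscle and pericyte markers, 3 were higher and none lower in each SMN group against Bap1KO. Against WT, 2 were lower in Smn1OE_K186R, 1 was higher and 2 were lower in Smn1OE, and none was called in Bap1KO. Of 6 tested macrophage markers, 2 were higher and 2 lower in each SMN group against Bap1KO and against WT, and 1 was lower in Bap1KO against WT. Of 5 tested endothelial markers, 1 was lower in all 5 comparisons with Bap1KO or WT, and 1 was higher in each SMN group against WT. Of 5 tested Schwann cell markers, 1 was lower in Smn1OE_K186R against Bap1KO and 1 higher in Smn1OE against WT. None of 3 tested myogenic markers was called. No gene of any list was called in Smn1OE_K186R against Smn1OE.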

How the data were processed

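RNA-seq libraries (paired-end TruSeq on an Illumina instrument, per the labels) were deposited as raw read counts per Ensembl gene, not normalized by the authors. Per the submitters' processing notes, the tools were STAR 2.6.1, HTSeq 0.9.1, cutadapt 1.4.2, CASAVA 1.8.2 and DESeq2 with build GRCm39, and the strand setting is not given in the sources used here. Of 55335 genes, 55154 had a symbol in GENCODE M21, an annotation of the earlier build, which also gave exon lengths and the distances between neighbours. The 5 rows that name no gene (11.1 to 14.6% of records) were left out.

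Counts were fitted with edgeR 4.0.16 in R 4.3.3 (TMM, filterByExpr with minimum count 10, quasi-likelihood F test, 4 groups over 12 libraries, 8 residual degrees of freedom), after a test on simulated data. Benjamini-Hochberg adjustment ran over 16597 genes, with calls at an adjusted p under 0.05. The prior count was 0.125 for fold changes, and 2 for log2 CPM in likeness and within-batch differences. All 8 keratins were named whatever their values, with the 5 genes most like each of 4 of them, and markers called or near 0. Linker and filament genes were named from those called, not always by smallest adjusted p, with Vim beside them. Ivl, Tchh, Cdsn, Ocln, Cd34, Col1a1, Gsn, Klf5, Ets1, Snai1, Klf4, Zeb2, Twist1 and the genes between Krt80 and Krt84 were named after their values were seen. The members and lists were chosen with earlier results of these data known. No 2 libraries of a group agreed within sampling noise.

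The labels give Bap1KO and WT libraries, and those of the SMN groups, shared media batches that match their replicate numbers. Deviations from the group means correlated at 0.24 to 0.435 within batches A to C and 0.302 to 0.431 within D to F. Alternatives were this replicate block, DESeq2 1.42.0, RLE size factors, no filter, only the 6 libraries compared, a block on numbers shared across batches, limma 3.58.1 voom with batch as a random effect, and each library left out. Depth limits precision for Krt8, Krt87 and, in Bap1KO and WT, Krt18.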

Additional observations from a re-analysis of the deposited data

How the results depend on the processing

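With the replicate block on media batch, 3 keratins were called in Bap1KO against WT (2 without it) and 0 in Smn1OE_K186R against Smn1OE. It added the Krt20 call given above and changed no other keratin call. A block on replicate numbers that are shared across batches, where same-numbered libraries have no batch in common, was fitted to the 6 libraries compared, so it changed the libraries and the block together. It gave 2 calls in Smn1OE against Bap1KO (5 as reported) and 1 in Smn1OE_K186R against WT (2 as reported). With only the 6 libraries compared, 2 were called in Smn1OE_K186R against Bap1KO (4 with all 12) and 1 in Smn1OE_K186R against WT. In these 2 comparisons and in Smn1OE against Bap1KO, Krt8 did not pass the filter on the 6 libraries, with or without that block, and was not tested. The cause of the other changes was not tested.

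Leaving out each library gave 0 to 2 calls in Bap1KO against WT, 3 to 6 in Smn1OE against Bap1KO, 2 to 6 in Smn1OE_K186R against Bap1KO, 2 to 3 in each SMN group against WT, and 0 to 0 in Smn1OE_K186R against Smn1OE. Only uncalled genes changed sign. Krt10 in Smn1OE_K186R against WT went to 0.02 with RLE size factors and 0.02 with DESeq2 (-0.01 as reported), and lay between -0.19 and 0.17 over the omissions. Krt19 lay between -0.48 and 0.09 in Bap1KO against WT, -0.16 and 0.39 in Smn1OE against Bap1KO, -0.25 and 0.31 in Smn1OE_K186R against Bap1KO, and -0.31 and 0.05 in Smn1OE against WT. Krt7 lay between -0.25 and 0.74 in Smn1OE_K186R against WT and -0.3 and 0.61 in Smn1OE against WT, and Krt10 between -0.06 and 0.18 in Smn1OE against WT. In Smn1OE_K186R against Smn1OE the ranges were -0.49 to 0.67 for Krt7, -0.77 to 0.25 for Krt18, -0.23 to 0.15 for Krt19, -0.34 to 0.09 for Krt20, -0.27 to 0.1 for Krt10, -0.22 to 0.69 for Krt80 and -0.71 to 0.73 for Krt87. Testing every gene with a read also called Krt20 in Bap1KO against WT (adjusted p = 0.0157), Krt7 in Smn1OE_K186R against Bap1KO (0.00144), Krt80 in Smn1OE against Bap1KO (0.0114) and Krt80 in Smn1OE_K186R against WT (0.00357), and DESeq2 called Krt80 in the last (0.0237). Over the 835 settings of single genes, direction and side of the threshold were kept in 515 that left out a library and in 245 others. RLE and DESeq2 scaling moved the median of all genes by under 0.1. Depth limits what Krt8 can show, at 59 reads in all, and Krt18 in WT, at 5, 8 and 6 reads.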
